A study of Mus musculus with 138 samples.

Results

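The 10 genes described here, Gli1, Axin2, Prrx1, Six2, Ddr2, Ctsk, Cd200, Grem1, Lepr and Pdgfra, have each been used to mark or sort skeletal stem cells or progenitors of sutures, periosteum or bone marrow. They were chosen by name as such markers, and they are 10 of the 55487 genes counted in a study of the sutures between the skull bones of C57BL/6J mouse embryos. The 100 libraries used for the comparisons came from laser-captured tissue of the coronal, frontal, sagittal and lambdoid sutures, taken at E16.5 or E18.5 (days of embryonic development). Each suture was cut into suture mesenchyme (SM), the tissue between the bones, and the osteogenic fronts (OFs), the growing bone edges on its sides, which gave 20 groups of 5 libraries each. The OFs were those of the frontal and parietal bones in the coronal suture, the frontal bone in the frontal suture, the parietal bone in the sagittal suture, and the interparietal and parietal bones in the lambdoid suture. No embryo carried a mutation or received a treatment. At each age and suture, same-numbered SM and OF libraries carried the same litter id. The whole id differs between the replicates of a group, several of which share all of it but a last number, and no id or first part of one occurs at both ages. The coronal suture was also measured in 4 single-cell libraries (2 at each age), each made from pooled sutures, and the complete suture at E18.5 in 16 bulk libraries.

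A skull suture is a growth site where mesenchymal cells are kept undifferentiated between bone edges at which their descendants become osteoblasts. Lineage tracing in postnatal mice gave several of these markers their name: cells that express Gli1, a transcription factor and target of hedgehog signalling, Axin2, a negative regulator and target of Wnt signalling, or Prrx1, a homeobox factor of limb and craniofacial mesenchyme, contribute to skull bone repair. Ddr2 is a collagen receptor and Ctsk encodes cathepsin K, a collagen-degrading protease best known from osteoclasts and also used to trace periosteal stem cells. Cd200 is a membrane glycoprotein used to sort skeletal stem cells, Grem1 a secreted BMP antagonist, Lepr the leptin receptor, which marks stromal cells of adult marrow, and Pdgfra the alpha receptor for platelet-derived growth factor. Six2 is a homeobox factor of craniofacial mesenchyme. Most of this knowledge comes from later stages than the embryos measured here.

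Total counts lay between 20133332 and 34518477 in the coronal libraries and between 7305627 and 18450955 in those of the other sutures. Values below are counts scaled to library size (CPM) after TMM scaling, an adjustment for differences in library composition, and all 10 genes were among the 19768 with at least 1 CPM in more than 10% of the 100 libraries. Each gene was tested in 1 edgeR quasi-likelihood model of the 20 groups, with Benjamini-Hochberg adjustment over all 19768 genes of a comparison and a threshold of 0.05. The library titles carry a code for the suture, which SM and OF libraries of 1 suture share, and the labels do not say which libraries were prepared together. Suture and library preparation may thus be confounded, so level differences between sutures cannot be told apart from differences in preparation. The regions were checked against 11 osteoblast markers, of which 0 were higher and 10 lower in SM than in OF.

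**Figure D1:**
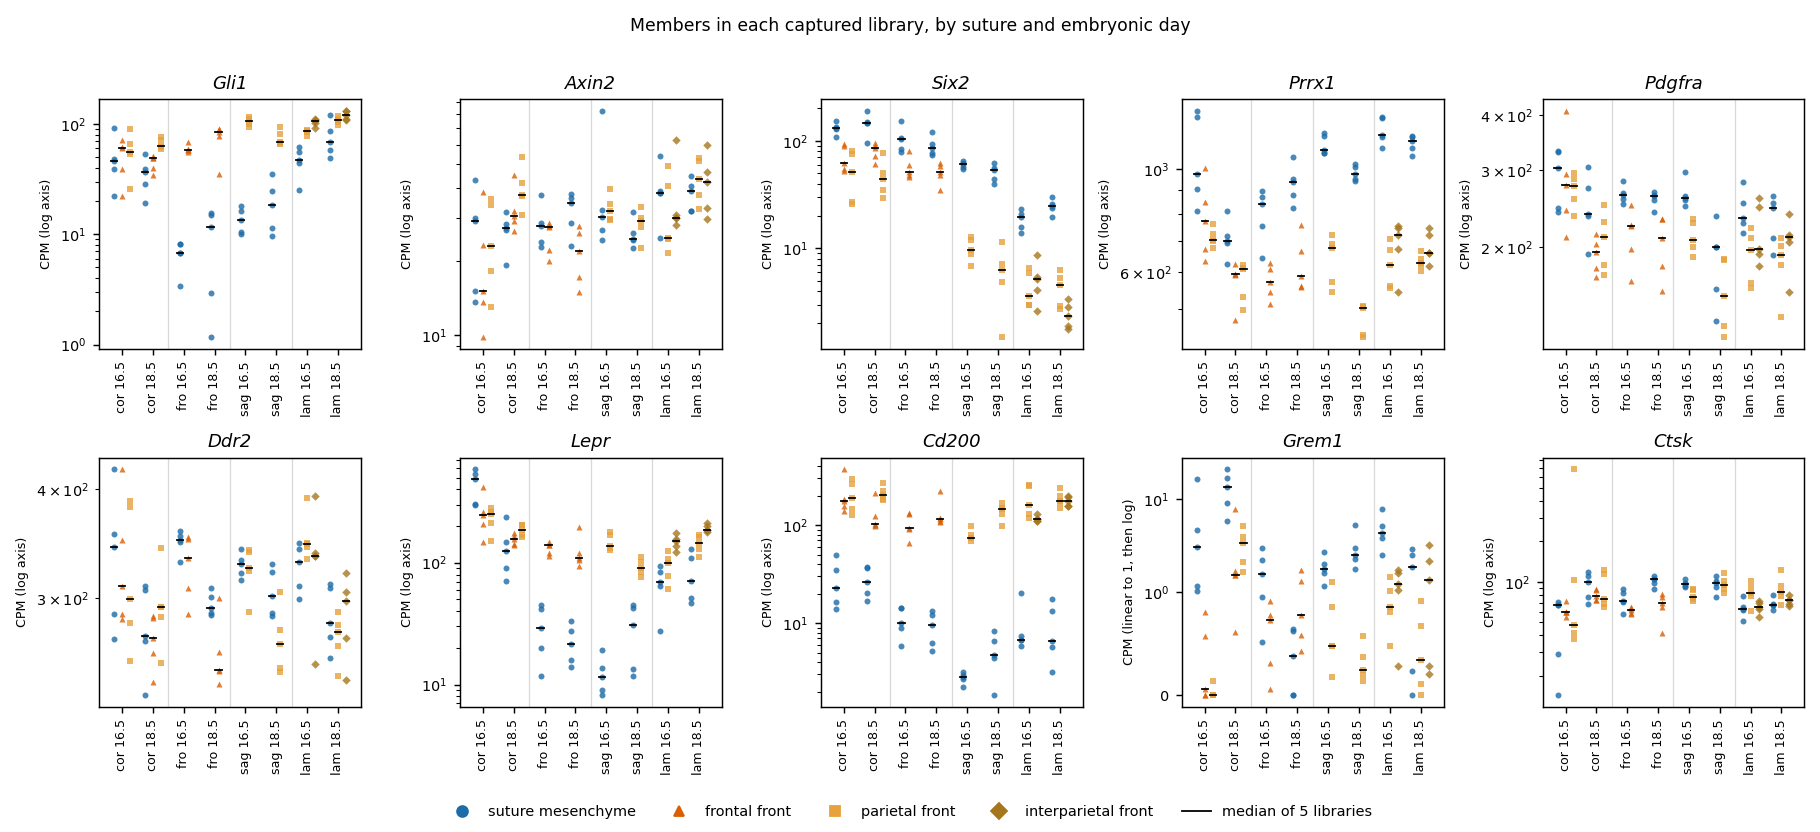
CPM of each of the 10 genes (vertical axis, logarithmic, for Grem1 linear up to 1) in every captured library, by suture and embryonic day (horizontal axis); circles are SM, other symbols are the OFs, and the bar is the median of 5 libraries. Cd200 is lower in SM than in every OF of the same suture and age, Six2 and Prrx1 are mostly higher, and Lepr is higher in coronal SM at E16.5 and mostly lower in SM elsewhere.

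Across the 4 sutures and both ages, 7 of the 10 markers differed between SM and OF, and they did so in both directions. Six2, Grem1, Prrx1 and Pdgfra were higher in SM, with log2 fold changes of 1.81, 1.98, 0.68 and 0.26. Cd200, Gli1 and Lepr were lower in SM, by log2 fold changes of -3.80, -1.67 and -1.40. Axin2, Ddr2 and Ctsk did not pass the test, with differences of 0.08, 0.06 and -0.02. The share of all genes that passed in this comparison was 55.4%, so the share among the markers is not in itself a result about them. Of those genes, 5449 were higher and 5497 lower in SM. Scaled by total counts alone the split was 6831 to 4237 and the median log2 fold change of all genes moved from 0.0364 to 0.141, with 6369 to 4751 under median-ratio size factors and 6713 to 4915 in DESeq2. The direction of the 7 markers was the same under each of these scalings and the other alternatives. In bulk tissue, a lower level can come from fewer cells of a type or from less RNA per cell, and these cannot be told apart.

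The same was asked of each front separately, which gave 12 comparisons of an SM with an OF of its suture and age. Among the 120 tests of the 10 genes, 30 found SM higher and 27 found SM lower. The share of all genes that passed was 30.3% against the frontal and 35.6% against the parietal OF of the coronal suture at the earlier stage, and 3.46% and 18% at the later. In the frontal suture it was 7.91% at E16.5, then 11.1% at E18.5, and 17.7% and 25.3% in the sagittal suture. In the lambdoid suture it was 11.2% against the interparietal and 23.1% against the parietal OF at E16.5, and 19.6% and 24.6% of genes passed at E18.5.

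Cd200 (mm10, chr16:45382135-45409053) differed most between the tissues of the 10 genes. In the sagittal suture at E16.5, the 5 SM libraries held 2.70, 2.85, 2.24, 3.15 and 2.96 CPM and the 5 parietal OF libraries 79.5, 98.9, 68.7, 73.7 and 73.1 CPM. In the coronal suture at E16.5, SM held 34.5, 22.8, 13.9, 16.3 and 49.9 CPM and the frontal OF 139.9, 156, 185, 176 and 374 CPM. The libraries of SM and OF did not overlap in any of the 12 comparisons, all 12 passed, and SM was lower in 60 of 60 pairs with the same litter id. Here and below, each coronal or lambdoid SM library is paired with both of its OFs, so the 60 pairs hold 40 SM libraries and are not independent. The difference was smallest against the coronal frontal OF at E18.5 (log2 fold change -2.22 ± 0.31 SE, edgeR quasi-likelihood test, adjusted p = 1.03e-07) and largest against the sagittal parietal OF at E16.5 (-4.82 ± 0.36, adjusted p = 8.23e-20). Averaged over ages it was -2.74 in the coronal, -3.55 in the frontal, -4.11 in the lambdoid and -4.78 in the sagittal suture, and the 4 sutures differed from each other in it (edgeR quasi-likelihood F-test, adjusted p = 1.37e-07). Its level in SM ran from a median of 2.85 CPM in the sagittal suture at E16.5 to 26.1 CPM in the coronal suture at E18.5.

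The genes whose group means followed Cd200 most closely, over 20 groups with each suture's mean removed, were Col22a1, Sgms2 and Ifitm5, with Pearson correlations of 0.995, 0.992 and 0.989. Such correlations are descriptions, since groups of 1 suture and age share litter ids and libraries of 1 suture may have been prepared together. Among the 10 genes, Cd200 ran most nearly opposite to Six2 (-0.944) and Prrx1 (-0.909). Col22a1, a collagen, and Ifitm5, a membrane protein of mineralizing osteoblasts, are osteoblast markers. The summed level of the osteoblast markers was 14480 to 62008 CPM (median 31133) in the OF libraries and 6231 to 36723 CPM (median 16581) in the SM libraries, and its part in the Cd200 difference was not tested. In the sagittal suture at E16.5, which had the largest Cd200 difference, this sum was not lower in SM (median 27654 against 26144 CPM), and in the frontal suture at E18.5 it was 26463 against 26768 CPM. Such a sum weighs the most abundant genes of the list most. Gene by gene, 10 of the 11 osteoblast markers were lower in SM over all sutures, with a median log2 fold change of -4.87. The summed proliferation markers were also lower in SM by median (1025 against 1716 CPM, 8 of 8 genes lower), except in the coronal suture at E16.5, where SM held 2463 and the frontal and parietal OFs 1753 and 2209 CPM. Higher in SM by median were the summed markers of chondrocytes (352 against 130 CPM, 6 of 9 genes higher and 1 lower), mast cells (133.8 against 40.0 CPM, 2 of 5 higher), skeletal muscle (21.9 against 3.02 CPM, 2 of 6 higher), macrophages (240 against 183 CPM, 10 of 11 higher) and erythroid cells (631 against 283 CPM, median log2 fold change 0.24 over 8 genes). The same held for the markers of suture mesenchyme (2149 against 1637 CPM, 6 of 8 higher and 1 lower), ectocranial mesenchyme (1913 against 1300 CPM, 5 of 7 higher), hypodermis fibroblasts (177 against 125 CPM, 3 of 7 higher and 1 lower) and osteoclasts (221 against 165 CPM, 1 of 7 higher and 2 lower). The ectocranial sum was lower in SM in the coronal suture, at 838 against 1279 and 1732 CPM at E16.5 and 1237 against 1334 and 1636 CPM at E18.5. For each of these lists, the part in the SM to OF differences of the 10 genes was not tested.

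Six2 (chr17:85684277-85688274) was higher in SM in all 12 comparisons and in 60 of 60 pairs. Its level also differed widely between captured groups of different sutures, which cannot be told apart from a difference in library preparation. In the sagittal suture at E16.5, SM held 65.1, 60.4, 54.4, 56.6 and 61.4 CPM and the parietal OF 11.99, 6.80, 9.65, 8.82 and 12.8 CPM. In the lambdoid suture at E18.5, SM held 29.8, 25.6, 23.6, 19.7 and 24.99 CPM and the interparietal OF 2.85, 1.89, 3.36, 2.34 and 1.78 CPM. The groups did not overlap in 10 of the 12 comparisons. The exceptions were the coronal suture at E18.5 against its frontal OF and the frontal suture at E16.5, where SM held 153, 104, 84.2, 79.1 and 105 CPM and the OF 80.8, 51.3, 46.1, 47.6 and 60.0 CPM.

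The excess of Six2 in SM was smallest in the frontal suture at E18.5 (0.82 ± 0.26 SE on the log2 scale, edgeR quasi-likelihood test, adjusted p = 0.0266), next to smallest against the coronal frontal OF at E18.5 (0.84 ± 0.26, adjusted p = 0.0467), and largest against the interparietal OF at E18.5 (3.33 ± 0.31, adjusted p = 6.18e-15). Averaged over ages it was 0.85 in the frontal and 1.17 in the coronal suture, and 2.43 in the lambdoid and 2.80 in the sagittal suture, and the sutures differed (adjusted p = 1.68e-10). The frontal call was lost in 5 of 16 alternatives, without replicate 1, 2, 3 or 4 in turn (adjusted p from 0.0532 to 0.156) and with the second coronal libraries (0.0615). The coronal call was lost in 9 of 16, without any 1 of the 5 replicates (0.0608 to 0.157), with total counts (0.0721), without a low-count filter (0.0559), with edgeR's own filter (0.0548) and with each suture in a fit by itself (0.291). The OFs of the coronal and frontal sutures held medians of 44.3 to 85.9 CPM, against 2.34 to 9.65 CPM in the sagittal and lambdoid OFs. Six2 levels in the coronal and frontal OFs thus overlapped those of the sagittal SM, at 39.3 to 65.1 CPM, a comparison of sutures that may also differ in library preparation. Pcdhga2, Gm6089 and Cdk14 followed Six2 most closely across the groups (Pearson r of 0.961, 0.960 and 0.954). The relative Six4 was also higher in SM over all sutures, by 0.47 ± 0.09 on the log2 scale (adjusted p = 1.27e-06), but did not pass in the coronal suture (-0.08 ± 0.16, adjusted p = 0.745).

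Prrx1 (chr1:163245119-163313710) had the highest mean CPM per kilobase of exon among the 10 genes in 14 of the 20 groups, Ctsk in 4, and Six2 and Cd200 in 1 each. One of the 4 groups led by Ctsk, the coronal parietal OF at E16.5, holds a library with 693 CPM of Ctsk that stood apart from its other 4. In the lambdoid suture at E16.5, SM held 1290, 1111, 1170, 1295 and 1187 CPM and the parietal OF 621, 561, 554, 708 and 669 CPM. SM was higher in 60 of 60 pairs, and 11 of 12 comparisons passed, with groups that did not overlap in 11 of 12. The remaining comparison, with the coronal frontal OF at E18.5, gave a log2 fold change of 0.30 ± 0.11 (edgeR quasi-likelihood test, adjusted p = 0.102), although its groups did not overlap, while those of the same OF at E16.5 did and passed (adjusted p = 0.000854). The latter call was lost in 2 of 16 alternatives, without replicate 1 (adjusted p = 0.0642) and with each suture in a fit by itself (0.0623). The call against the coronal parietal OF at E18.5 was lost in 3 of 16, without replicate 2 (0.279), with each suture by itself (0.2) and with the second coronal libraries (0.0637). Over both ages the difference was 0.41 in the coronal, 0.53 in the frontal, 0.84 in the lambdoid and 0.93 in the sagittal suture (test between sutures, adjusted p = 1.69e-05). The genes most like Prrx1 across groups were Zfp462, Cachd1 and Lipa (Pearson r of 0.979, 0.975 and 0.973 over 20 groups). Prrx2, the close relative of Prrx1, was lower in SM (-0.39 ± 0.07 on the log2 scale, adjusted p = 1.47e-06).

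Pdgfra (chr5:75152292-75198215) was higher in SM in 56 of 60 pairs, but by little. In the frontal suture at E18.5, SM held 262, 263, 256, 241 and 267 CPM and the OF 232, 181, 232, 209.9 and 159 CPM. These groups did not overlap. None of its 12 single comparisons passed, their log2 fold changes lying between 0.02 and 0.37, while the mean over all sutures did (0.26 ± 0.04 SE, edgeR quasi-likelihood test, adjusted p = 2.83e-07). With the litter id as a block, 4 of the 12 passed, between 0.32 and 0.36 (adjusted p from 0.0293 to 0.0489), and so did the coronal suture over both ages (0.18 ± 0.07, adjusted p = 0.0447, against 0.0653 without the block). The second receptor, Pdgfrb, was higher in SM by 0.92 ± 0.07 and the ligand Pdgfd by 0.92 ± 0.21, while the ligand Pdgfa was lower, at -2.37 ± 0.09 (adjusted p = 3.22e-22, 0.00012 and 3.44e-41). These were the 3 of 5 further PDGF genes that passed, beside 55.4% of all genes. The genes whose pattern was most like that of Pdgfra were Wls, which carries Wnt proteins to the cell surface, Cdh11, a mesenchymal cadherin, and Hif3a (Pearson r of 0.888, 0.872 and 0.870 over 20 groups).

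**Figure D2:**
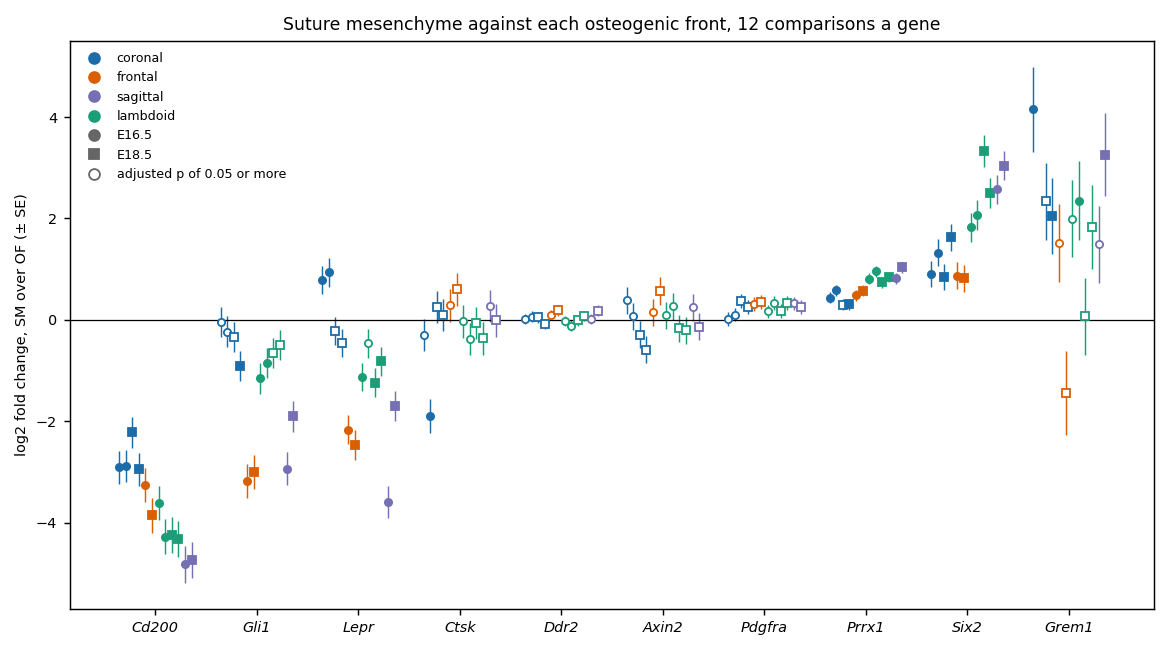
Log2 fold change of SM over OF (vertical axis, with its standard error) for each gene (horizontal axis) in the 12 comparisons; colours are sutures, circles E16.5 and squares E18.5, and open symbols did not pass the test. Grem1 against the coronal parietal OF at E16.5 is left out because that OF had only 3 counts. Cd200 lies below 0 in all 12 comparisons and Six2 above 0, while Lepr runs from -3.59 to 0.94.

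Gli1 (chr10:127329882-127341974) was lower in SM in 7 of 12 comparisons, in which the groups did not overlap, and in no comparison was it called higher. In the frontal suture at E16.5, SM held 8.16, 6.76, 8.19, 6.82 and 3.37 CPM and the OF 69.1, 55.7, 58.5, 59.5 and 58.3 CPM. In the coronal suture at E16.5, SM held 22.2, 92.1, 38.8, 47.9 and 45.7 CPM, the frontal OF 60.4, 71.3, 39.4, 61.6 and 22.1 CPM and the parietal OF 55.3, 89.9, 53.2, 65.1 and 25.8 CPM. The frontal groups lay far apart, while the coronal groups overlapped. The log2 fold change over both ages was -3.09 ± 0.23 in the frontal, -2.42 ± 0.22 in the sagittal and -0.79 ± 0.19 in the lambdoid suture (edgeR quasi-likelihood test, adjusted p = 2.85e-20, 3.02e-16 and 0.000377). In the coronal suture it was -0.38 ± 0.19 and did not pass (adjusted p = 0.0994), although the parietal OF at E18.5 alone did (-0.91 ± 0.30, adjusted p = 0.0233). That call was lost in 6 of 16 alternatives, which were without replicate 2, 4 or 5 (adjusted p = 0.069, 0.111 and 0.0941), with total counts (0.203), with each suture in a fit by itself (0.117) and with the second coronal libraries (0.054). The call against the lambdoid parietal OF at E16.5 (-0.85 ± 0.30, adjusted p = 0.0292) was lost in 7 of 16, without replicate 1, 4 or 5 (0.0762, 0.164 and 0.147), with median-ratio size factors (0.0728), total counts (0.26), DESeq2 (0.0605) and the second coronal libraries (0.0619). The sutures differed in this gene (adjusted p = 5.19e-14).

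Other genes of the hedgehog pathway passed in both directions. Of 11 further pathway genes tested, 5 were higher and 5 lower in SM over all sutures, where 55.4% of all genes passed. Lower were Ihh, a hedgehog ligand, by a log2 fold change of -4.48 ± 0.24, and Hhip, which binds the ligands and is itself a target, by -2.30 ± 0.12 (adjusted p = 1.89e-30 and 2.68e-31). The mean for Hhip does not hold in the coronal suture, where it was higher in SM by 0.90 ± 0.20 (adjusted p = 0.000131), against -4.27 in the frontal, -3.83 in the sagittal and -2.02 in the lambdoid suture. Higher were the co-receptors Cdon, by 1.36 ± 0.06, and Gas1, by 1.24 ± 0.08 (adjusted p = 1.43e-39 and 3.36e-25). Fstl4, Bcl2 and Dlx6 followed Gli1 most closely across the groups (Pearson r of 0.945, 0.934 and 0.925 over 20 groups).

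Lepr (chr4:101717404-101815352) followed Gli1 across groups more closely than any other marker did (Pearson r of 0.908 over 20 groups with suture means removed, with Asap1 at 0.940 and Cpne8 at 0.901), and it was the only marker with calls in both directions. In the sagittal suture at E16.5, SM held 13.7, 19.3, 8.97, 11.6 and 8.17 CPM and the parietal OF 128, 132, 137, 179 and 169 CPM. In the coronal suture at E16.5 the order was the opposite: SM held 305, 297, 489, 589 and 531 CPM, the frontal OF 149, 245, 263, 207 and 419 CPM and the parietal OF 151, 261, 281, 213 and 249 CPM. The coronal SM lay above every parietal OF library and overlapped the frontal OF through the library with 419 CPM.

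Lepr was higher in coronal SM at E16.5 by 0.79 ± 0.28 against the frontal and 0.94 ± 0.28 against the parietal OF on the log2 scale (edgeR quasi-likelihood test, adjusted p = 0.0242 and 0.00559). At E18.5, coronal SM held 148, 236, 91.1, 125 and 70.2 CPM and overlapped both OFs, at 141 to 176 and 162 to 204 CPM, and neither comparison passed. In the other sutures SM was lower in 7 of 8 comparisons, by log2 fold changes from -3.59 to -0.82, the exception being the lambdoid parietal OF at E16.5 (-0.46 ± 0.28, adjusted p = 0.253). Over both ages the fold change was -2.64 in the sagittal, -2.32 in the frontal and -0.91 in the lambdoid suture and 0.26 ± 0.17 (adjusted p = 0.224) in the coronal suture, and the sutures differed (adjusted p = 4.42e-17). The coronal call against the frontal OF was lost in 4 of 16 alternatives. These were without replicate 1, 3 or 4 (log2 fold changes of 0.57 to 0.76, adjusted p from 0.0609 to 0.17) and with each suture in a fit by itself. The coronal call against the parietal OF was lost in 1 of 16, without replicate 4 (0.78, adjusted p = 0.0519). Against the lambdoid parietal OF at E18.5 (-0.82, adjusted p = 0.0234) the call was lost in 6 of 16 alternatives. These were without replicate 1, 2 or 5 (-0.69 to -0.62, adjusted p from 0.0509 to 0.147) and with median-ratio size factors, total counts and DESeq2.

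The SM to OF difference of Lepr also changed between the ages, in opposite directions in 2 sutures. From E16.5 to E18.5 it moved by -1.20 ± 0.34 on the log2 scale in the coronal suture (edgeR quasi-likelihood test of the interaction, adjusted p = 0.0177) and by 1.89 ± 0.40 in the sagittal suture (adjusted p = 0.0394). Of all genes, 7.62% passed this test in the coronal and 0.0304% in the sagittal suture. The coronal change was lost in 2 of 15 alternatives, without replicate 3 or 4 (-1.10 and -0.99, adjusted p = 0.0874 and 0.109). The sagittal change was lost in 9 of 15, among them each that left out 1 of the 5 replicates (adjusted p from 0.105 to 1).

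Grem1 (chr2:113746164-113758646) was scarce, and in the coronal suture its level was higher in SM. At E16.5, coronal SM held 16.51, 4.70, 3.07, 1.17 and 1.03 CPM, the frontal OF 0.576, 0, 0, 0.803 and 0.0585 CPM, and the parietal OF 0.134, 0, 0, 0 and 0 CPM, which was 3 counts in 5 libraries. At E18.5, SM held 21.2, 5.80, 13.4, 16.98 and 9.12 CPM, the frontal OF 1.52, 1.52, 1.70, 7.80 and 0.616 CPM and the parietal OF 3.35, 1.63, 5.10, 3.92 and 2.09 CPM. SM lay above the OF in all coronal comparisons except that with the frontal OF at E18.5, where 1 OF library reached into its range. Of the 12 comparisons 5 passed, and the log2 fold change over both ages was 3.93 ± 0.46 in the coronal, 2.37 ± 0.56 in the sagittal and 1.56 ± 0.45 in the lambdoid suture (edgeR quasi-likelihood test, adjusted p = 1.18e-11, 0.00032 and 0.00325). In the frontal suture, where no group had a median over 1.55 CPM, it was 0.04 ± 0.63 (adjusted p = 0.983), and the sutures differed (adjusted p = 0.000165). The coronal value, the mean over sutures and the test between sutures include the group with 3 counts. With the second coronal libraries they became 2.60 ± 0.45 (adjusted p = 2.22e-06), 1.64 ± 0.25 (3.02e-08) and an adjusted p of 0.0316. With the litter id as a block the coronal frontal OF at E18.5 passed as well (2.64 ± 0.74, adjusted p = 0.0268). With the second coronal libraries in place of the first, the call against the frontal OF at E16.5 (4.16 ± 0.84, adjusted p = 6.62e-05) became 1.29 ± 0.76 and did not pass (0.27). The call against the parietal OF at E18.5 (2.05 ± 0.74, adjusted p = 0.042) was lost in 6 of 16 alternatives, among them those without replicate 1, 2, 4 or 5 (0.0847 to 0.107). Across the groups, Banp, 6430710M23Rik and Gm6478 were most like Grem1 (Pearson r of 0.920, 0.911 and 0.902 over 20 groups).

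Other BMP pathway genes also passed in both directions. With 55.4% of all genes passing, of 8 BMP ligands and other antagonists 2 were higher in SM (Bmp5, 1.47 ± 0.15, and Chrd, a further antagonist, 1.35 ± 0.19) and 4 were lower, with Bmp2 at -1.91 ± 0.09 and the antagonist Nog at -1.03 ± 0.22 (adjusted p = 1.29e-14, 3.49e-09, 2.91e-36 and 4.26e-05). Nog was higher in SM in the coronal suture (1.55 ± 0.38, adjusted p = 0.000697) and lower in the other 3 (-2.62 to -1.52), and Bmp5 did not pass in the frontal suture (-0.38 ± 0.32, adjusted p = 0.508).

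Neither Axin2 nor Ddr2 passed between the regions. Axin2 (chr11:108920349-108950783) overlapped between SM and OF in 12 of 12 comparisons, SM was higher in 29 of 60 pairs, and no comparison passed. Its largest excess in OF was in the coronal suture at E18.5, where SM held 28.5, 19.3, 27.4, 31.8 and 26.8 CPM and the parietal OF 41.8, 37.3, 31.1, 36.9 and 53.6 CPM (log2 fold change -0.58 ± 0.27, edgeR quasi-likelihood test, adjusted p = 0.121). Of 11 other Wnt targets tested, 2 were higher and 8 lower in SM, beside the 55.4% of all genes that passed, with a median log2 fold change of -0.85 against 0.04 over all genes. Dkk1, an inhibitor of Wnt receptors, was at -5.17 ± 0.21 and Tcf7, a transcription factor, at -3.91 ± 0.15, whereas Lgr5, a receptor of R-spondins, was at 3.64 ± 0.20 and the inhibitor Nkd1 at 0.37 ± 0.07 (adjusted p = 6.07e-40, 2.2e-42, 1.41e-29 and 9.51e-06).

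Ddr2 (chr1:169972307-170110762) varied least among groups of the 10 genes, with group medians from 249 to 350 CPM. Its 12 SM to OF differences lay between -0.11 and 0.19 on the log2 scale and none passed, and SM was higher in 36 of 60 pairs. Averaged over sutures the difference was 0.06 ± 0.03 (edgeR quasi-likelihood test, adjusted p = 0.129), and it passed with median-ratio size factors (0.13, adjusted p = 0.000976), with total counts (0.16, 0.000603) and in DESeq2 (0.13, 0.000444), where the median of all genes also moved up. The genes most like Ddr2 were Hba-x, a globin of early red cells, Slc38a1, an amino acid transporter, and Bahcc1 (Pearson r of 0.886, 0.860 and 0.852 over 20 groups), and those most like Axin2 were Tstd1, Anxa11 and Trim3 (0.860, 0.859 and 0.850).

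Ctsk (chr3:95499256-95509362) had overlapping levels in SM and OF in 10 of 12 comparisons, with SM higher in 30 of 60 pairs, and its only call rested on 1 library. In the 2 comparisons without overlap SM lay above the OF, at 88.6 to 111 against 41.4 to 80.8 CPM in the frontal suture at E18.5 (log2 fold change 0.60 ± 0.32, edgeR quasi-likelihood test, adjusted p = 0.277) and at 91.2 to 104 against 72.4 to 88.7 CPM in the sagittal suture at E16.5 (0.27 ± 0.32, adjusted p = 0.676). With each suture in a fit by itself both passed (adjusted p = 0.00479 and 0.0094), and so did lower levels in SM than in the lambdoid parietal OF at both ages (-0.35 ± 0.13 and -0.37 ± 0.13, adjusted p = 0.0333 and 0.0265). At E16.5, coronal SM held 14.3, 70.9, 67.4, 29.1 and 66.9 CPM, the frontal OF 54.8, 59.4, 59.6, 60.0 and 71.5 CPM and the parietal OF 37.7, 47.8, 41.7, 103 and 693 CPM. The log2 fold change of SM over the parietal OF was -1.89 ± 0.33 (edgeR quasi-likelihood test, adjusted p = 2.73e-06). Without the library with 693 CPM, left out after the data were seen, it was -0.21 ± 0.21 (adjusted p = 0.476), the frontal comparison at E18.5 passed (0.59 ± 0.20, adjusted p = 0.042), and the other 4 libraries had a median of 44.7 CPM. In the library with 693 CPM of Ctsk, the osteoclast genes Acp5 and Mmp9 had 27 and 5 counts, against 31 to 172 and 0 to 77 in the other 4 libraries, so this library stood apart in Ctsk and not in those genes. Of 7 osteoclast markers tested, 1 was higher and 2 were lower in SM over all sutures, and their summed level was 87.9 to 323 CPM in the OF libraries and 135 to 345 CPM in the SM libraries. The genes most like Ctsk across groups were Rab11fip5, Cst3 and Ubn1 (Pearson r of 0.887, 0.884 and 0.883 over 20 groups).

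The SM to OF difference over both ages was also set against all genes in each suture, and differed among the sutures for the 6 genes named with that test above. The share of all genes that passed over both ages was 37.2% in the coronal, 17.8% in the frontal, 39.8% in the lambdoid and 34.5% in the sagittal suture, and 20% of all genes differed among the sutures.

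The 10 genes were also compared between the ages within each region. Of 100 tests of E18.5 against E16.5, 10 in each of the 10 regions, 5 found a gene higher and 14 found it lower at E18.5, and the number that passed fell to 9 without replicate 1 of every group and to 11 with total counts in place of TMM. The litter ids of the 2 ages differed, so age cannot be told apart from litter. The share of all genes that passed was 24.4% in the coronal frontal OF, 20.6% in the coronal parietal OF and 27.1% in coronal SM, and 4.34% in the OF and 2.33% in the SM of the frontal suture. It was 0.288% in the interparietal OF, 0.986% in the parietal OF and 2.96% in the SM of the lambdoid suture, and 1.6% in the OF and 1.12% in the SM of the sagittal suture.

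Prrx1, Ddr2 and Pdgfra were lower at E18.5 in both tissues when averaged over sutures, though not in each suture. For Prrx1 the coronal and sagittal groups were all lower, while the frontal suture gave 0.22 ± 0.11 in SM and 0.13 ± 0.11 in OF (edgeR quasi-likelihood test, adjusted p = 0.41 and 0.598) and the lambdoid regions -0.09 to 0.02. Averaged in SM the log2 fold changes were -0.17 ± 0.05, -0.20 ± 0.05 and -0.20 ± 0.07 (edgeR quasi-likelihood test, adjusted p = 0.0268, 0.00439 and 0.0342), and in OF -0.17 ± 0.05, -0.28 ± 0.04 and -0.26 ± 0.06 (adjusted p = 0.00668, 1.7e-06 and 0.000893). In OF, Six2 was also lower, by a log2 fold change of -0.35 ± 0.12, and Grem1 higher, by 1.01 ± 0.35 (adjusted p = 0.0406 and 0.0408), and these calls were lost in 11 and 9 of 14 alternatives. In SM the Prrx1 and Pdgfra calls were each lost in 4, and the Ddr2 calls in 0. Of all genes, 11.1% passed in SM and 12.2% in OF. The change of the SM to OF difference with age, averaged over sutures, passed for none of the 10 genes in edgeR at adjusted p under 0.05 and for 0.703% of all genes.

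Lepr in coronal SM went from 297 to 589 CPM at E16.5 to 70.2 to 236 CPM at E18.5. These groups did not overlap, and the log2 fold change was -1.72 ± 0.29 (edgeR quasi-likelihood test, adjusted p = 2.52e-06). In sagittal SM, Lepr was higher at E18.5, by 1.21 ± 0.29 (adjusted p = 0.0116), a call that was lost in 4 of 15 alternatives, among them those without replicate 1 or 3. Prrx1 in coronal SM was 1293, 907, 814, 978 and 1336 CPM at E16.5 and 719, 813, 626, 699.6 and 692 CPM at E18.5. The groups lay next to each other without overlapping, at a difference of -0.59 ± 0.11 on the log2 scale (adjusted p = 1.43e-05), and the call was lost with total counts in place of TMM and with the second coronal libraries. Between these ages of coronal SM, the summed markers of macrophages went from 89.8 to 121 CPM to 222 to 349 CPM, those of chondrocytes from 93.5 to 137 CPM to 250.1 to 339 CPM and those of suture mesenchyme from 4259 to 5374 CPM to 3578 to 4160 CPM. None of these ranges overlapped, and their part in the age differences was not tested.

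In the coronal frontal OF, Axin2 was 23.3, 38.5, 15.2, 13.6 and 9.77 CPM at E16.5 and 26.6, 45.1, 32.0, 29.3 and 30.7 CPM at E18.5. These groups overlapped, and the log2 fold change of 0.70 ± 0.27 (edgeR quasi-likelihood test, adjusted p = 0.0425) was lost in 7 of the alternatives. Pdgfra there was lower at E18.5, at -0.57 ± 0.14 on the log2 scale (adjusted p = 0.00091), as was Prrx1, at -0.45 (0.000862). With total counts in place of TMM the sign turned for Prrx1 (0.03) and Ddr2 (0.14) in the coronal frontal OF and for Ddr2 in coronal SM (0.11), and none of these passed. In the coronal frontal OF the summed pericyte markers went from 145 to 511 CPM at E16.5 to 556 to 1030 CPM at E18.5, and the median of the summed osteoblast markers from 44343 to 16089 CPM, and their part was not tested. In the lambdoid parietal OF, Ddr2 was 347, 343, 346, 391 and 333 CPM at E16.5 and 274, 279.7, 244, 289 and 265 CPM at E18.5. These groups did not overlap, and the call (-0.38, adjusted p = 0.0437) was lost in 11 of the alternatives, among them each that left out 1 replicate.

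The age differences of Ctsk turned on the same library. In the coronal parietal OF it was lower at E18.5 (-1.05 ± 0.32, edgeR quasi-likelihood test, adjusted p = 0.0136) and, without the library with 693 CPM, higher (0.63 ± 0.22, adjusted p = 0.0297). The change of the coronal SM to OF difference with age, 1.27 ± 0.39 (adjusted p = 0.0318), became 0.42 ± 0.25 (0.312), and with the litter id as a block 1.00 ± 0.35 (0.0703). Averaged over sutures, Ctsk was higher at E18.5 in SM (0.37 ± 0.10, adjusted p = 0.00724) and in OF (0.26 ± 0.09, 0.0357) without that library, and in neither with it. In coronal SM alone, which does not hold that library, it was higher by 0.94 ± 0.32 (adjusted p = 0.0224). This call was lost in 3 of 15 alternatives, among them those without replicate 1 or 4 (0.217 and 0.0912). In the coronal frontal OF Grem1 was higher at E18.5 by 3.15 ± 0.81 (adjusted p = 0.00241), with the libraries given above, and its 3 counts in the parietal OF at E16.5 enter the mean over OFs.

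The OFs of 1 suture were compared with each other in the coronal and lambdoid sutures. Among 40 tests, 2 passed, Ctsk and Grem1 at E16.5 between the coronal OFs, both of them against the parietal OF with the library or the 3 counts described. The Ctsk difference, -1.60 ± 0.33 (edgeR quasi-likelihood test, adjusted p = 0.000455), became 0.09 ± 0.21 (0.834) without that library. With the litter id as a block neither passed in edgeR (Ctsk -0.66 ± 0.30, adjusted p = 0.151, and Grem1 3.14 ± 1.09, adjusted p = 0.0548), while Six2 at E18.5 did, higher in the frontal OF by 0.82 ± 0.22 (0.0133, against 0.0555 without the block). Between the coronal OFs 14.4% of all genes passed at E16.5 and 5.44% did so at E18.5, and between the lambdoid OFs 0.486% and 0.0101%. Gli1 was 105.7 CPM in the interparietal and 85.7 CPM in the parietal OF of the lambdoid suture at E16.5 by median, groups that did not overlap (lowest 91.9 and highest 87.6 CPM) but did not pass. The same held for Gli1 in the coronal suture at E18.5, lower in the frontal OF (log2 fold change -0.58 ± 0.30, adjusted p = 0.312), and for Lepr in the lambdoid suture at E18.5, higher in the interparietal OF (0.42 ± 0.28, adjusted p = 1).

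Of 13 other surface proteins used to sort skeletal stem or progenitor cells, 6 were higher in SM over all sutures and 2 lower, a share close to the 55.4% of all genes. Enpep, an aminopeptidase, was higher by 1.98 ± 0.19 and Cd34, a sialomucin of stem and endothelial cells, by 1.26 ± 0.07, whereas Thy1 was at -0.95 ± 0.12 and Nt5e, an ectonucleotidase, at -0.41 ± 0.09 on the log2 scale (edgeR quasi-likelihood test, adjusted p = 4.26e-16, 5.84e-29, 6.02e-11 and 3.55e-05). Nt5e passed only in the coronal suture taken by itself (-1.47 ± 0.17, adjusted p = 2.51e-11), and Thy1 in the frontal and sagittal sutures (-1.52 and -2.07). Among relatives of the 10 genes, 4 of 10 were higher and 1 lower, likewise near the 55.4% of all genes.

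The complete suture, undissected, was measured at E18.5 in 4 libraries per suture, prepared once in each of 4 library series and possibly from the same RNA, so only values are given, as CPM of all counts. Ctsk was 459 to 513 CPM in the coronal and 103 to 156 CPM in the other 3 sutures. The summed osteoclast markers moved with it, at 1059 to 1180 CPM in the coronal suture against 115 to 300 CPM elsewhere, and their part was not tested. Gli1 (42.3 to 51.7 CPM), Lepr (109.9 to 136 CPM) and Cd200 (129.7 to 193 CPM) were also higher in every coronal library than in any library of the other sutures, where they reached 36.3, 90.2 and 115 CPM. The summed osteoblast markers were 25496 to 38697 CPM in the coronal and 9321.5 to 27647 CPM in the other sutures, and their part in the Cd200 values was not tested. Prrx1 was highest in the sagittal suture (692 to 835 CPM) and Six2 in the frontal suture (51.0 to 66.5 CPM). Axin2, at 13.6 to 27.2 CPM, overlapped between all 4 sutures.

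**Figure D3:**
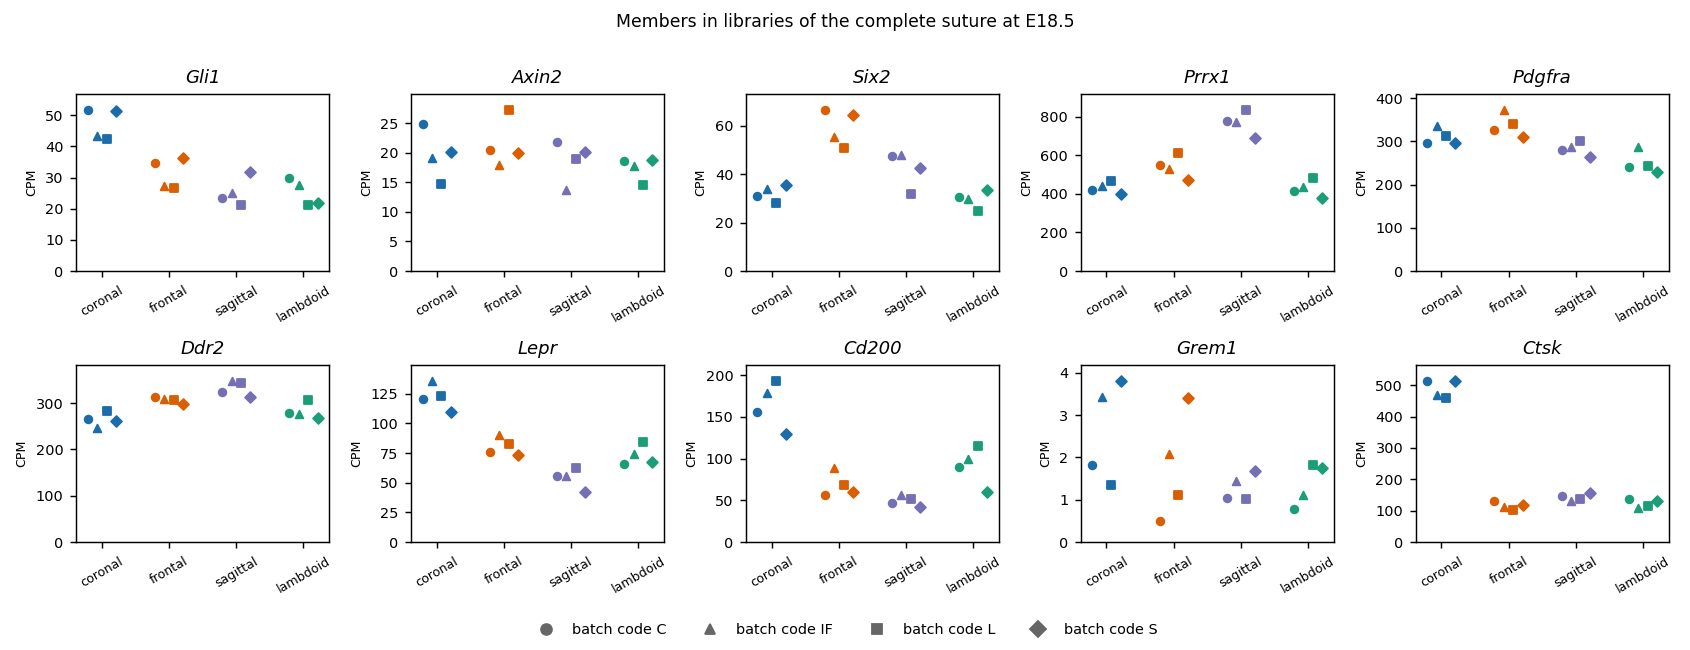
CPM of the 10 genes (vertical axis, from 0) in the libraries of the complete suture at E18.5, by suture (horizontal axis), with 1 symbol for each of the 4 codes in the library titles. Ctsk lies at 459 to 513 CPM in the coronal and at 103 to 156 CPM in the other sutures, under all 4 codes.

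In the single-cell libraries, the filters kept 466 and 337 cells of the younger and 2412 and 1577 of the older embryos, from 1530, 1482, 2628 and 1999 barcodes. The median number of unique molecular identifiers (UMIs) was 2501 and 2121 in the E16.5 libraries, against 18480 and 7131 in those of E18.5. The 2 ages were made with different versions of the kit, so an age difference cannot be told apart from one of chemistry. With 2 pooled libraries at each age nothing was tested between ages or across cells. At each age the 2 libraries shared 1 and 5 barcodes, and no barcode was shared between ages. Clusters were formed without the 10 genes and named only from other markers, with "-like" for a name that rests on them. Clusters without osteoclast, macrophage, endothelial, pericyte, chondrocyte or erythroid names, called mesenchymal here, held 316, 153, 1948 and 1360 cells. Intervals below are 95% intervals, exact Poisson for CPM of summed UMIs and Wilson for shares, and cover counting error only.

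**Figure D4:**
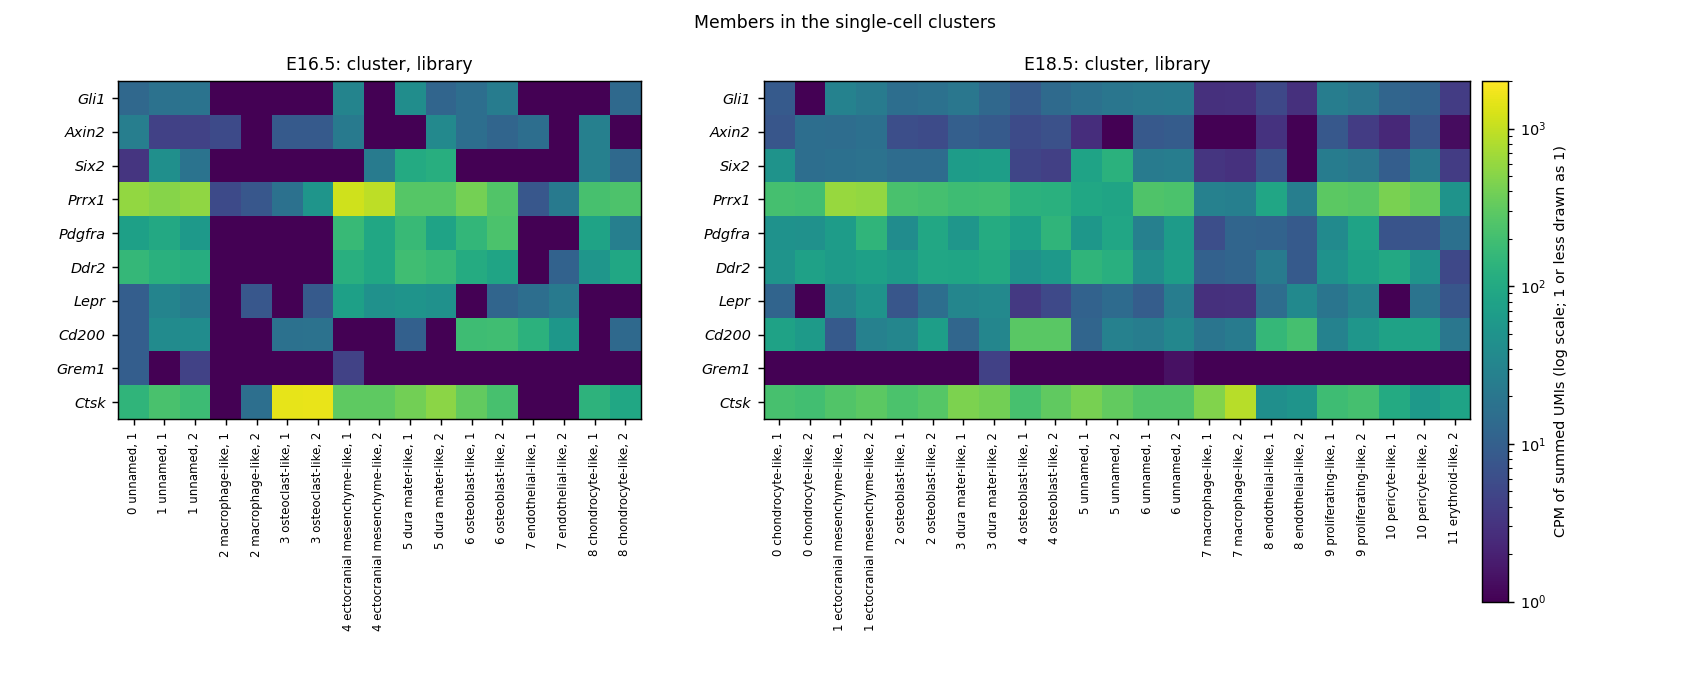
CPM of summed UMIs (colour, logarithmic, 1 or less drawn as 1) of the 10 genes (rows) in each cluster and library (columns) at E16.5 and E18.5. Ctsk is highest in the osteoclast-like cluster at E16.5 (1509 and 1532 CPM), Cd200 in the osteoblast-like cluster of E16.5, in cluster 4 of E18.5, led by Ibsp, and in endothelial-like clusters, and Prrx1 in the ectocranial mesenchyme-like cluster.

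The 10 genes peaked in different clusters. Prrx1 was highest in the ectocranial mesenchyme-like cluster, at 618 CPM (604 to 632) and 579 CPM (538 to 623) in the 2 E18.5 libraries and at 1163 CPM (1026 to 1313) and 938 CPM (670 to 1278) at E16.5. The pericyte-like cluster of E18.5 came next, at 437 and 346 CPM. Six2 was highest in an unnamed cluster led by Atp1b1 and Itih5, at 81.0 CPM (73.1 to 89.5) and 127 CPM (92.6 to 170), and in the dura mater-like cluster, at 66.2 and 70.8 CPM, and low in the Ibsp-led osteoblast-like cluster, at 4.91 and 4.17 CPM. The unnamed cluster held more summed dura mater markers (2439 and 1899 CPM) than the dura mater-like cluster (964.5 and 621 CPM), and stayed unnamed because its 10 leading genes held 1 marker of that class and 1 of another. The level of Six2 in the ectocranial mesenchyme-like cluster was 16.4 and 17.5 CPM, so the leading clusters of Six2 and Prrx1 were not the same.

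Cd200 was highest in a cluster where Six2 was low. It reached 288 CPM (269 to 309) and 283 CPM (265 to 302) in the Ibsp-led osteoblast-like cluster at E18.5 and 186 and 193 CPM in that of E16.5 named osteoblast-like. Endothelial-like cells followed, at 158 and 214 CPM at E18.5, so Cd200 UMIs were not limited to mesenchymal clusters. The cluster led by Gpx3 and Mmp13 held 33.1 and 70.5 CPM, and the ectocranial mesenchyme-like cluster 8.52 and 27.8 CPM. The former was named osteoblast-like from 1 marker among its 10 leading genes, and 10 of the 11 osteoblast markers were each detected in at least 10% of its cells. Its summed osteoblast markers (13860 and 28100 CPM) lay below those of the ectocranial mesenchyme-like (15760 and 29670 CPM) and dura mater-like clusters (20780 and 30120 CPM). That sum weighs the most abundant genes most, so it does not rank the clusters by identity. The cluster is called by its leading genes here, and the plot of levels by cluster labels it osteoblast-like.

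Ctsk was present in every mesenchymal cluster and yet not highest there. At E16.5 the osteoclast-like cluster held 1509 CPM (1294 to 1748) and 1532 CPM (1314 to 1776), and the dura mater-like cluster, the next, 393 and 533 CPM. The latter was named from 1 marker among its 10 leading genes, and 3 dura mater markers were each detected in at least 10% of its cells. Its summed dura mater markers (1002 and 722.6 CPM) lay below those of the osteoclast-like cluster (1082 and 731.3 CPM). At E18.5 no cluster met the osteoclast criteria, and the macrophage-like cluster held 479 and 875 CPM together with 1154 and 2236 CPM of summed osteoclast markers. Mesenchymal clusters of E18.5 held between 191 and 442 CPM, with 400 to 442 CPM in the dura mater-like cluster, and endothelial-like cells 44.4 and 51.3 CPM. Ctsk in mesenchymal cells of E18.5 was therefore above its level in endothelial-like cells of the same library in every cluster.

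Gli1, Lepr and Axin2 were sparse, and each had its highest level in the ectocranial mesenchyme-like cluster of at least 1 E18.5 library. Gli1 was 29.3 and 23.9 CPM there and 2.86 and 2.94 CPM in macrophage-like cells. Lepr was 31.6 and 49.3 CPM there, 33.1 and 36.1 CPM in the dura mater-like cluster and 3.51 and 5.36 CPM in the Ibsp-led osteoblast-like cluster. Axin2 was 15.3 and 16.7 CPM in the ectocranial cluster. Ddr2 was highest in the Atp1b1 and Itih5 cluster at 144 and 121 CPM, and Pdgfra ranged from 27.5 to 146 CPM over mesenchymal clusters, with lower values in library 1. Grem1 had at most 7 UMIs in any E18.5 cluster and library, below what a comparison needs.

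To compare how often the genes were found together, each cell was thinned to 1200 UMIs (E16.5) or 3500 UMIs (E18.5), which left out no cell. At E18.5, thinned, Ctsk was found in 62.0% (59.8 to 64.2) and 63.2% of mesenchymal cells and Prrx1 in 56.3% and 49.0%. Ddr2 followed with 21.0% and 23.9%, Pdgfra with 14.7% and 30.2% and Cd200 with 9.24% and 26.3%. The cells called mesenchymal include the Ibsp-led osteoblast-like cluster, which made up 118 of 1948 cells in the first and 401 of 1360 in the second library. The 2 libraries thus differed in their mix of cells. Six2 was found in 10.8% and 7.06%, Gli1 in 6.62% and 5.96%, Lepr in 5.60% and 6.397%, Axin2 in 3.13% and 1.84% and Grem1 in 0.308% and 0.221% of cells. Without thinning the shares rose with depth, for example to 32.9% and 13.2% for Gli1 and to 97.3% and 84.6% for Ctsk, at median depths of 18590 and 6658 UMIs.

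Macrophage-like cells of E18.5, which should lack most of these genes, served as a measure of free RNA. They numbered 276 and 73 and had median depths of 18550 and 13600 UMIs. Thinned to the same number of UMIs, 10.5% and 15.1% of them held Prrx1, 3.26% and 4.11% Ddr2, 1.45% and 5.48% Pdgfra, 3.26% and 9.59% Cd200, 1.09% and 1.37% Six2, and 1.81% and 1.37% Lepr. Gli1 was found in 0% and 1.37%, and Axin2 and Grem1 in none, which by the Wilson interval allows up to 1.37% and 5.00% of cells. A share of 1.37% in the second library, 1 of 73 cells, has an upper bound of 7.36%. The mesenchymal shares of Grem1 in both libraries lie below these upper bounds, so they could not be told from background. The thinned shares of Axin2, Gli1, Six2 and Lepr in the second library, taken over all mesenchymal clusters, also lie below them. In CPM of all UMIs of that library, the levels in the leading cluster of each gene were above those in macrophage-like cells, with intervals that did not overlap. Six2 was at 127 against 2.94 CPM (0.606 to 8.59), Lepr at 49.3 (37.8 to 63.2) and Gli1 at 23.9 (16.1 to 34.1) against the same 2.94 CPM, and Axin2 at 16.7 (10.3 to 25.5) against 0.980 CPM (0.0248 to 5.46). The leading clusters were picked as the highest in these same data, and the intervals cover counting error only. These values therefore describe and do not test a difference from background. Ctsk was found in 20.7% and 41.1% of the macrophage-like cells, which also hold osteoclast genes.

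At E16.5 the cells were thinned to fewer UMIs, so the shares are given beside those of E18.5 without a comparison. The E16.5 libraries also differed in their mix of cells. An unnamed cluster led by Mfap5 and Clec3b held 123 of 316 mesenchymal cells in the first and 1 of 153 in the second. Prrx1 was found in 51.6% and 39.9%, Ctsk in 23.1% and 23.5%, Ddr2 in 18.4% and 16.99% and Pdgfra in 12.3% and 8.50% of cells. Cd200, Six2, Lepr, Gli1 and Axin2 were each found in 1.90% to 5.23% of cells, and Grem1 in 0.316% and 0.654%. Among the 75 and 64 macrophage-like cells of E16.5, not thinned, Axin2 was found in 1.33% and 0% and Lepr in 0% and 1.56%. Cd200, Six2, Gli1 and Grem1 were found in none of them. With so few cells, the lowest of the shares above could not be told from background.

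The number of markers in 1 mesenchymal cell was mostly between 0 and 3. In the E18.5 libraries, thinned, 7.34% and 6.10% of cells held none of the 10 genes, 28.3% and 22.4% held 1, 38.3% and 35.5% held 2, and 20.4% and 25.1% held 3. Cells with 4 made up 4.88% and 8.90% and cells with 5 made up 0.719% and 1.84%, and the most in any cell was 6, in 2 and 1 cells. At E16.5, 23.4% and 28.8% of cells held none and 44.0% and 40.5% held 1. The count is led by Prrx1 and Ctsk, and at 1200 or 3500 UMIs a cell without a UMI of a gene may still express it.

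For pairs of genes, the share of cells with the second gene was compared between cells with and without the first, as a description. Of 210 Six2 cells of the first E18.5 library, 8 held Cd200 (3.81%, 1.94 to 7.34), against 9.90% of the other cells, and of 96 in the second library 6 did (6.25%, 2.90 to 12.97), against 27.8%. This was the only pair whose intervals did not overlap in both E18.5 libraries. The Cd200 shares of the Six2 cells were near those of the macrophage-like cells (3.26% and 9.59%). The clusters that led in Six2 and in Cd200 also differed, and the part of the clusters in this was not tested.

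Gli1 and Axin2, the hedgehog and Wnt targets, were seen together in 7 of 129 Gli1 cells of the first E18.5 library (5.43%, against 2.97% of the other cells) and in 2 of 81 in the second (2.47% against 1.80%). Gli1 cells held Prrx1 in 66.7% (58.2 to 74.2) against 55.6% in the first library and in 54.3% against 48.6% in the second. Gli1 and Lepr, which were alike across the captured groups, shared 6 of the 129 Gli1 cells (4.65%) and 4 of the 81 (4.94%). Prrx1 cells held Six2 in 8.39% against 13.9% in the first library and in 6.91% against 7.21% in the second. At E16.5 no pair had separate intervals, and no cell held both Gli1 and Axin2.

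Promoters of 300 bases, from 250 before to 50 after the annotated start, were searched for a GLI site (GACCACCCA) and a TCF/LEF site (ATCAAAG) on both strands, since Gli1 and Axin2 are read as targets of those factors. Promoters were taken from the RefSeq annotation of GRCm38.p6 and matched 9 of the 10 genes, with no entry for Gli1. Neither motif was found in those promoters, which says only that these letters are not in these windows. Of 32851 promoters, 0.253% held the GLI and 3.73% the TCF/LEF site.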

How the data were processed

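RNA from laser-captured tissue was amplified with the Ovation RNA-Seq System V2 and made into Nextera XT libraries. The submitters' processing notes name cutadapt, STAR 2.5.3a and featureCounts 1.6.4 with mm10, and the deposited counts name the GENCODE vM22 annotation. The authors deposited raw counts per gene for each captured library and UMI counts per cell for each single-cell library, and these were used as deposited. Reads were counted without strand, so exons that overlap genes of the opposite strand (0.972% to 5.31% of the exon bases of Gli1, Axin2, Ddr2 and Pdgfra per overlapping gene) cannot be assigned to 1 of them.

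The 10 genes, the gene lists and the named-gene rule were chosen with earlier results of these data known. Named were the 10 genes, up to 3 genes most correlated with each, and from each pathway list up to 2 called genes with the largest change in each direction. Genes with at least 1 CPM in more than 10% of the 100 first captured libraries were tested in R 4.3.3 with edgeR 4.0.16 (TMM scaling, 1 mean per group, quasi-likelihood F-tests, two-sided, Benjamini-Hochberg adjustment). The model was tested on simulated counts with known changes. Labels do not say whether replicates are single animals, so p-values measure the spread between these samples.

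Same-numbered SM and OF libraries carried the same litter id, which pairs them and, taken whole, differs between the replicates of a group. Over 60 such pairs, deviations from group means correlated with a median of 0.0505, against -0.0121 for other numbers, and 16 pairs exceeded 0.1. Alternatives were limma 3.58.1 (voom), DESeq2 1.42.0, other scalings, no filter, a block for the litter id, each suture by itself, second coronal libraries and leaving out libraries. The 18 second coronal libraries entered only that alternative.

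Cells with over 800 genes were kept, those beyond 3 median absolute deviations in UMIs, genes or mitochondrial share removed, and the ages clustered separately in scanpy 1.11.5. Barcodes made up mostly of haemoglobin were counted but not removed as such, and an erythroid-like cluster of 79 cells remained at E18.5. Predicted doublets (0.317% to 1.29%) were counted and kept.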

Additional observations from a re-analysis of the deposited data

Results flagged for a closer look

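Of 240 groups of 4 or 5 libraries examined for the 10 genes, 16 held a library far from the others (its gap to the nearest library exceeded Dixon's 95% critical value), and chance gives about 1 in 20. Among them was Ctsk at 693 CPM in the coronal parietal OF at E16.5, replicate 5, where the other 4 libraries held 37.7 to 103 CPM. Cd200 was high at 374 CPM in the coronal frontal OF at E16.5 (replicate 5), at 213 CPM in that OF at E18.5 (replicate 2), at 222 CPM in the frontal suture's OF at E18.5 (replicate 4) and at 20.4 CPM in lambdoid SM at E16.5 (replicate 2). Grem1 stood apart at 16.51 CPM in coronal SM at E16.5 (replicate 1), at 7.80 CPM in the coronal frontal OF at E18.5 (replicate 4) and at 0.134 CPM in the coronal parietal OF at E16.5 (replicate 1), where the other libraries held 0.

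In replicate 4 of sagittal SM at E16.5, Axin2 was 82.7 CPM and Pdgfra 298 CPM. Axin2 was also high at 62.7 CPM in the lambdoid interparietal OF at E16.5 (replicate 5), and Ddr2 at 391 CPM in the lambdoid parietal OF at E16.5 (replicate 4). In replicate 5 of the frontal suture's OF at E18.5, Gli1 was low at 35.5 CPM and Lepr high at 197 CPM. Gli1 was high at 69.1 CPM in that OF at E16.5 (replicate 1), and Prrx1 low at 473 CPM in the coronal frontal OF at E18.5 (replicate 1).

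The SM to OF difference varied among the 4 sutures for 6 genes, tested as an interaction in the edgeR model: Gli1 (adjusted p = 5.19e-14), Prrx1 (1.69e-05), Six2 (1.68e-10), Cd200 (1.37e-07), Grem1 (0.000165) and Lepr (4.42e-17). It also varied between the ages in the coronal suture for Ctsk, by 1.27 on the log2 scale, for Grem1, by -3.48, and for Lepr, by -1.20, and in the sagittal suture for Lepr, by 1.89. The coronal Ctsk value rests on the library with 693 CPM and the coronal Grem1 value on an OF group with 3 counts, and with the second coronal libraries the latter was -1.02 (adjusted p = 0.644). The sagittal Lepr value did not pass in 9 of 15 alternatives, among them each that left out 1 of the 5 replicates.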

How the results depend on the processing

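Of the comparisons counted over genes or tests, 98 values under the alternatives kept within 1.5 times of the reported count, 2 rose above it and 20 fell below it, and the cause was not tested unless an alternative used fewer libraries. The 57 calls of SM against each OF ranged from 49 to 65. The 19 age calls in single regions became 11 with total counts, 11 without the filter on low counts and 12 with the second coronal libraries, and ranged from 9 to 17 with 1 replicate or library left out. The 139 genes whose SM to OF difference changed with age became 67 in limma voom, 249 in DESeq2 and 54 with the second coronal libraries, and ranged from 51 to 158 with 1 replicate or library left out. The genes that changed with age in SM, 2187 in all, ranged from 1375 to 2261 there. The 2 calls between OFs of 1 suture became 0 with each suture in a fit by itself and 4 with the second coronal libraries, and ranged from 1 to 3 with 1 replicate or library left out.

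With the litter id as a fixed replicate block there was 1 call between OFs, another than the 2 reported, and with it as a random block in limma voom there were 3. The mean SM to OF difference of Ctsk was 0.0121 as a fixed and 0.0178 as a random block in place of -0.02. As a fixed block it changed no call other than those given with the results. As a random block in limma voom, Grem1 passed in 7 and Pdgfra in 2 of the 12 comparisons of SM with an OF. In limma voom without the block they passed in 6 and 0. Ages could not be compared with the litter id as a fixed block, since each id occurs at 1 age.

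Among values that passed, those that turned their direction were the age changes of Prrx1 and Ddr2 in the coronal frontal OF and of Ddr2 in coronal SM, with total counts, and, without replicate 5 or its library with 693 CPM, Ctsk between the coronal OFs at E16.5 and between ages in the parietal OF. Differences near 0 that did not pass also turned. The mean SM to OF difference of Ctsk was 0.0437 with median-ratio size factors, 0.0438 in DESeq2, 0.0888 with total counts and 0.0173 in limma voom, and ranged from -0.0449 to 0.0771 with 1 replicate or library left out, and that of Axin2 from -0.00652 to 0.157. The change of the SM to OF difference with age for Prrx1, 0.00249 as reported, was -0.0124 with median-ratio size factors, -0.00407 with total counts, -0.00911 without the filter and -0.0123 in DESeq2, and ranged from -0.0355 to 0.0251 in those runs. For Ddr2 it ranged from -0.0011 to 0.113, for Cd200 from -0.345 to 0.0921, for Lepr from -0.0852 to 0.084 and for Pdgfra from -0.00814 to 0.0838. With the second coronal libraries that of Lepr was -0.00556 and the age change of Ctsk in OF -0.00215. In SM, the age change of Axin2 ranged from -0.189 to 0.0232, of Six2 from -0.00209 to 0.0671 and of Cd200 from -0.0722 to 0.398, and in OF that of Ctsk from -0.0381 to 0.324.

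Leaving out the coronal library with 693 CPM of Ctsk was chosen after seeing the data. Low counts limit Grem1, with 3 counts in a whole group, and in single cells Gli1, Axin2, Lepr and Grem1, whose shares moved with depth and thinning.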
